A study of Mus musculus with 4 samples.

Results

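Exhausted-like CD8 T cells that carried little granzyme C, D, E or F RNA were selected cell by cell from leukocytes of mouse KPC tumours. A cell was a member when it had between 300 and 5000 genes detected, no more than 6% of its UMIs (unique molecular identifiers, 1 per captured RNA molecule) from mitochondrial genes, at least 1 UMI of Cd3e, Cd3d or Cd3g, at least 1 UMI of Cd8a or Cd8b1 and no Cd4 UMI. It also had a UMI of at least 2 of the 3 checkpoint genes Lag3, Pdcd1 and Havcr2, fewer than 5 UMIs of Gzmc, Gzmd, Gzme and Gzmf together and fewer than 2 UMIs of the cell cycle genes Mki67 and Top2a. This rule took 2005 of 23011 filtered cells (8.71%) and 54.9% of the 3655 cells that passed the CD3, CD8 and Cd4 conditions, called the CD8 gate here. The rule used measured RNA, so the levels of its own genes are given as description only.

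The tumours were grown under the skin of C57BL/6 mice from KPC cells, a line derived from a mouse pancreatic cancer. Mice received ADU-S100, a STING agonist, once into the tumour, 4H8, an agonistic antibody against LTβR, repeatedly into the peritoneum, both agents, or neither. Tumours were taken on the day of resection, days after the last antibody dose and long after the single STING agonist dose. Live CD45+ cells were sorted and 5′ single-cell libraries were made. Each group gave 1 library. Wherever 4 values stand together they follow this order: untreated, then the STING agonist, then the LTβR agonist, then the combination of both. All groups share the tumour line and the host strain, and the tumours of a group were pooled, so a difference between treatments and a difference between animals cannot be told apart. With 1 library per group there is no replicate check and no test: intervals are exact 95% intervals that cover counting error only, treat the UMIs of a cell as independent, and are too narrow where few cells hold a gene. A gene is called higher or lower past 1.5-fold.

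CD8 T cells that meet antigen for long periods take up a state called exhaustion. They keep several inhibitory receptors at the surface, among them PD-1 (Pdcd1), LAG-3 (Lag3) and TIM-3 (Havcr2), and the transcription factor Tox is known to sustain the state. Exhausted populations run from a progenitor form that keeps Tcf7 and lymphoid homing genes to a terminal form rich in Havcr2, Entpd1 and effector molecules. STING senses cytosolic cyclic dinucleotides and drives type I interferon, and LTβR is a TNF receptor family member best known for lymphoid tissue organisation. It is carried mainly by stromal and myeloid cells.

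The members came from libraries of 7191, 3955, 7824 and 5869 barcodes, and numbered 631, 348, 457 and 569. Their median depth was close between libraries, at 6788, 6965.5, 6539 and 6900 UMIs and 2467, 2543.5, 2381 and 2468 genes per cell. Barcode sequences that also occurred in another library were found in 52 members. CD8 T cell markers summed to 6642, 7347, 5946 and 6127 CPM (counts of a gene normalised to the summed UMIs of a library's members). Ncr1 and Trdc, which mark NK and gamma-delta T cells, stood at 0, 1.90, 1.44 and 0.894 CPM and 0.405, 0, 0.863 and 1.34 CPM. Ncr1 is only 1 of 5 NK markers, whose sums are given below. At least 2 of the 5 were detected in 17.4%, 16.95%, 11.2% and 12.1% of members. Trdc was the only 1 of 4 gamma-delta markers in the matrix, while Tcrg-C2, a gamma chain gene, had a mean of 35.3 CPM in members. Low Ncr1 and Trdc thus do not by themselves exclude these cell types.

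The label was checked with its markers. Lag3 was detected in 94.9%, 95.98%, 94.7% and 92.6% of members, Pdcd1 in 89.9%, 91.1%, 87.1% and 91.04% and Havcr2 in 80.8%, 74.7%, 71.8% and 81.02%, which the rule sets in large part. Ccl3 and Ccl4, 2 inflammatory chemokines that the rule did not use, were detected in 61.5%, 47.4%, 50.98% and 45.3% and in 81.5%, 76.1%, 76.1% and 73.6% of members. Among 540 B-like cells with no CD3 UMI the same chemokines were seen in 6 of 540 (1.11%) and 30 of 540 (5.56%). By library these cells numbered 39, 12, 108 and 381. Tox was detected in 74.2%, 52.01%, 76.1% and 59.6% of members against 8 of 540 (1.48%) of the B-like cells. The B-like cells had median depths of 4078, 4722.5, 3695 and 4384 UMIs, below those of the members. This comparison sets the members apart from B cells and does not tell exhausted from other CD8 T cells.

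All 3 checkpoint genes were seen in 1242 members, or 65.6%, 61.8%, 53.6% and 64.7% of each library. Lag3 with Pdcd1 but no Havcr2 UMI made up 19.2%, 25.3%, 28.2% and 18.98%, so members without a Havcr2 UMI were less frequent in the untreated and combination libraries. Lag3 with Havcr2 only made up 10.1%, 8.91%, 12.9% and 8.96%, and Pdcd1 with Havcr2 only 5.07%, 4.02%, 5.25% and 7.38%. Summed over members, Lag3 stood at 742, 884, 624 and 655 CPM, Pdcd1 at 479, 645, 398 and 536 CPM and Havcr2 at 405, 366, 294 and 416 CPM, all within 1.5-fold of untreated. At the edge of the granzyme rule, 45 members had 3 or 4 Gzmc to Gzmf UMIs, 18 cells just outside it had 5 or 6, and 169 had 7 or more. At the edge of the cell cycle rule, 443 members had 1 Mki67 or Top2a UMI and 149 cells outside it had 2. Any Gzmc to Gzmf UMI was present in 174 members.

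Some members also carried RNA of other cell types. At least 2 macrophage markers or at least 2 B cell markers were detected in 270 members (13.5%), and the share was 14.9%, 7.76%, 15.8% and 13.5%. Extending this to neutrophil and dendritic markers raised the number to 301. The 6 macrophage markers (Lyz2, C1qa, C1qb, C1qc, Apoe and Csf1r) summed to 1125, 502, 1092 and 528 CPM over all members and to 36.9, 31.8, 45.04 and 36.4 CPM once the 270 were left out, so the untreated and LTβR agonist libraries carried the most. The neutrophil markers summed to 219, 473, 323 and 1.34 CPM and the B cell markers to 13.8, 9.48, 55.5 and 128 CPM, the latter being highest in the combination library. In the STING agonist library Cd79a and Ms4a1 were at 0, and in the combination library S100a8, S100a9 and Retnlg were. The dendritic markers summed to 767, 286, 859.8 and 498 CPM, the NK markers to 264, 302, 209.99 and 237 CPM and the tumour and stroma markers to 3.84, 4.93, 4.89 and 4.70 CPM. Each gene difference is therefore followed, where it matters, by its value without the 301 mixed members.

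Members were least frequent in the LTβR agonist library. They made up 9.30% (95% interval 8.62 to 10.02), 9.28% (95% interval 8.37 to 10.3), 6.39% (95% interval 5.84 to 6.99) and 10.7% (95% interval 9.85 to 11.5) of filtered cells. Against the untreated library the share was 0.687 [0.583 to 0.810] times as high with the LTβR agonist, 0.998 [0.836 to 1.19] times with the STING agonist and 1.15 [0.983 to 1.34] times with the combination, where the bounds set opposite ends of the 2 intervals against each other. The share in the combination library was 1.67 [1.41 to 1.97] times that in the LTβR agonist library. After each cell was thinned to 2000 UMIs the shares were 7.63%, 8.12%, 4.59% and 8.34%, with the same library lowest. For this, 690, 399, 958 and 574 shallower cells were left out.

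Within the CD8 gate the order changed. The gate itself held 15.5%, 15.9%, 12.8% and 20.5% of filtered cells, and members made up 60.1%, 58.3%, 49.8% and 52.2% of it. Both libraries with the LTβR agonist were lower than untreated on this scale, at 0.829 [0.738 to 0.931] and 0.868 [0.779 to 0.967] times, and the STING agonist library was at 0.970 [0.860 to 1.09] times. With cells thinned to 2000 UMIs the LTβR agonist and combination libraries were at 0.712 [0.607 to 0.833] and 0.793 [0.688 to 0.912] times. Thinned to 1000 UMIs they were at 0.683 [0.519 to 0.896] and 1.004 [0.809 to 1.25] times. The combination was thus not lower at 1000 UMIs, though that interval also holds the unthinned 0.868. The part of depth in this was not tested. In the LTβR agonist and combination libraries, CD8 cells with no checkpoint gene were more frequent, at 9.24%, 10.2%, 17.7% and 17.3% of the gate. Cells that met the checkpoint condition but had 5 or more Gzmc to Gzmf UMIs made up 6.67%, 8.71%, 1.53% and 4.67%, lowest with the LTβR agonist, where the share was 0.229 [0.100 to 0.487] times untreated. Filtered cells were shallower in the libraries with the LTβR agonist, with medians of 7094, 6748, 5750 and 5877 UMIs. The shares of these 2 other classes were not computed on thinned cells, so the part of depth in them was not tested.

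**Figure D1:**
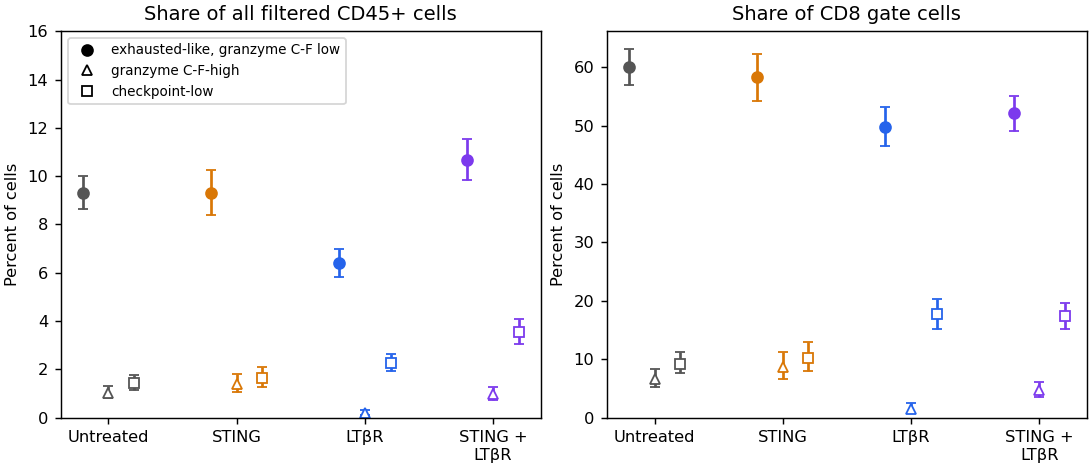
Share of filtered cells (left, percent) and of the CD8 gate (right, percent) taken by the members, the granzyme C-F-high cells and the checkpoint-low cells in each of the 4 libraries, with exact 95% intervals of counting error. The members lie at 6.39% of filtered cells in the LTβR agonist library and between 9.28% and 10.7% in the others, and at 49.8% and 52.2% of the CD8 gate in the libraries with the LTβR agonist against 60.1% and 58.3% without it.

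The members were set against 509 checkpoint-low CD8 cells, which had none of the 3 checkpoint genes. Both sets of cells were chosen on these RNA counts, so these differences describe them and are not tested. Past 1.5-fold in the same direction in all 4 libraries, 316 of 6279 genes were higher in members (5.03%) and 253 were lower (4.03%). Differences between cell classes are log2 ratios of CPM + 10, given as the median over the 4 libraries with the lowest and highest library in square brackets.

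Most chemokines and several effector molecules were higher in members, and most genes of recirculating and progenitor cells were lower. Ccl3 differed by 5.08 [4.19 to 5.79], Ccl4 by 3.44 [2.95 to 3.96], the pore-forming protein Prf1 by 3.67 [3.17 to 4.08], the protease Gzmb by 2.56 [1.77 to 2.99] and the cytokine Ifng by 3.06 [2.79 to 3.50]. Serpine2, a protease inhibitor, differed by 3.84 [2.67 to 4.25] and Rgs16, a regulator of G protein signalling, by 3.73 [3.53 to 4.17]. In the other direction, Tcf7 and Lef1, the transcription factors that mark progenitor and naive T cells, differed by -3.65 [-4.35 to -3.60] and -2.97 [-3.80 to -2.48], and S1pr1, which guides lymph node exit, by -3.24 [-3.44 to -2.92]. Tcf7 stood at 12.7, 26.2, 18.4 and 12.1 CPM in members and 274, 428, 351 and 441 CPM in checkpoint-low cells, with no overlap between the 2 sets.

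Of 11 inhibitory receptors that the rule did not use, 3 were higher in members in all 4 libraries and 1 was lower. Higher were Tigit and Ctla4, which differed by 1.71 [1.18 to 1.83] and 1.71 [1.39 to 2.18], and Entpd1, which encodes the ectonucleotidase CD39, by 2.38 [2.06 to 2.80]. Btla, an inhibitory receptor of resting lymphocytes, was lower at -1.44 [-1.51 to -1.17], and the list median was 0.39. Tox was 513, 338, 559 and 304 CPM in members and 165, 199.96, 212 and 149.96 CPM in checkpoint-low cells, a difference of 1.17 [0.73 to 1.58]. Of 16 transcription factors linked to exhaustion, 9 were higher in members in all 4 libraries (median 0.89, against 0.023 over all genes) and 1, Ikzf2, was lower at -1.24 [-2.42 to -1.01]. Of 10 chemokines and cytokines 7 were higher and Xcl1, a chemokine for cross-presenting dendritic cells, was lower at -0.81 [-1.16 to -0.72].

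Of 14 genes of glycolysis and hypoxia, 13 were higher in members (median 1.18). Of 13 progenitor and memory genes 11 were lower and none was higher (median -2.02). Of 12 cytotoxic genes 4 were higher, Gzmb, Prf1, Nkg7 and Serpina3g, and of 13 genes of T cell receptor signalling 5 were higher, among them Zap70 and the phosphatase Ptpn6. Interferon-stimulated genes (1 higher and 1 lower of 20), immediate early genes (1 lower of 13), heat shock genes (none of 9), cytokine receptors (2 higher, 1 lower of 12), NK receptor genes (3 higher, 2 lower of 10), costimulatory receptors (3 higher, 2 lower of 12) and tissue residency genes (3 higher, 2 lower of 8) held fewer calls or calls in both directions.

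Against the 187 granzyme C-F-high CD8 cells, which met the same checkpoint condition, far fewer genes differed: 93 of 6082 were higher in members (1.53%) and 16 were lower (0.263%), Gzmc, Gzmd, Gzme and Gzmf among the latter by the rule. The LTβR agonist library held only 14 such cells, so its values are thin. Those with 7 or more Gzmc to Gzmf UMIs were deeper, at medians of 10773, 12013, 8572 and 10576.5 UMIs. Members with none had 6684, 6854, 6376 and 6767. The part of depth and of the smaller number of cells in this comparison was not tested. Ccl5, a chemokine of memory and effector T cells, was 8277, 6084, 6207 and 5201 CPM in members and 2819, 1436, 837 and 1585 CPM in granzyme C-F-high cells, a difference of 1.89 [1.55 to 2.88]. The transcription factor Maf was 53.4, 28.8, 67.9 and 47.2 CPM and 21.99, 0, 15.2 and 3.77 CPM (1.79 [0.99 to 2.05]), and Cd101, an inhibitory receptor, differed by 0.97 [0.59 to 1.75]. Klf2 and Lef1, which mark less differentiated T cells, differed by 1.16 [1.01 to 1.95] and 0.95 [0.65 to 1.01].

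Irf8, an interferon regulatory factor, was lower in members in all 4 libraries at -0.83 [-0.92 to -0.81]. Serpinb9, an inhibitor of granzyme B, was at -0.72 [-1.56 to -0.30] and did not pass 1.5-fold in each library. Of the cytotoxic list itself none of 12 genes passed 1.5-fold in all 4 libraries, with a median of -0.30. Of 18 interferon-stimulated genes 3 were higher in members, Gbp2, Igtp and Ifi27l2a (list median 0.58, against 0.065 over all genes). All 6 macrophage markers were also higher in members, and Lyz2 went from 3.27 [0.65 to 3.56] to 0.29 when cells of both sets with at least 2 macrophage or 2 B cell markers were left out. The number of genes higher in members was then 29 in place of 93. The 14 lists held few calls here: 1 higher and 0 lower of 9 inhibitory receptors, 1 (Maf) and 1 (Irf8) of 16 transcription factors, 2 and 0 of 7 progenitor genes, 1 and 0 of 10 chemokines and cytokines, 1 and 0 of 8 residency genes, 1 and 0 of 13 immediate early genes, and none of the costimulatory, heat shock, glycolysis, NK receptor, cytokine receptor or T cell receptor signalling genes.

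**Figure D2:**
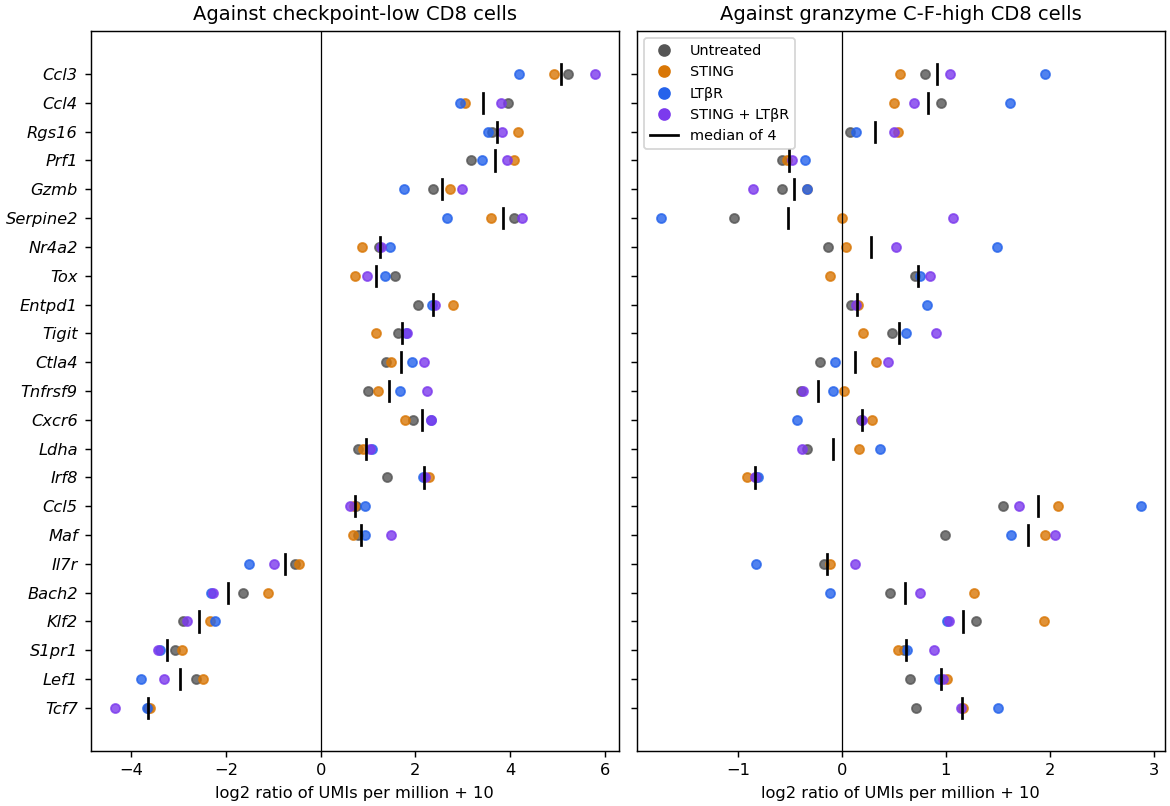
Log2 ratio of CPM + 10 in members over checkpoint-low cells and over granzyme C-F-high cells for 23 genes; each point is 1 library and the bar is the median of the 4. Ccl3 (median 5.08) and Tcf7 (median -3.65) lie at the ends of the comparison with checkpoint-low cells, while most genes lie near 0 in the comparison with granzyme C-F-high cells.

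The members varied among themselves. With the 270 mixed members left out, 428, 241, 265 and 390 members had a Havcr2 UMI and 109, 80, 120 and 102 had none. Ccl3 was 1434, 1141, 1119.5 and 977 CPM in the former and 367, 147, 315 and 111 CPM in the latter, higher in every library, with a median log2 ratio of 2.40 [1.80 to 3.02]. Ccl4 (1.45 [1.11 to 1.84]), Prf1 (1.35 [0.88 to 1.73]), Ifng (1.16 [0.59 to 2.03]), Entpd1 (0.94 [0.79 to 1.12]) and Prdm1 (0.88 [0.76 to 1.04]), a transcription factor of effector differentiation, followed it, and Gzmb at 1.17 [0.14 to 1.55] did so less evenly. Lower in Havcr2-positive members were Bach2 (-0.93 [-1.29 to -0.65]), which restrains effector differentiation, Cxcr3 (-0.87 [-1.29 to -0.42]) and Xcl1 (-1.31 [-2.36 to -0.70]). Havcr2 detection depends on depth as well as on expression, and its part in these differences was not tested.

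A Tcf7 UMI was found in only 27, 20, 16 and 18 of the same members. Gzmb was 1084, 106, 143 and 464 CPM in these and 2629.6, 2993, 1432 and 2327 CPM in the rest (-2.77 [-4.69 to -1.27]). Prf1 (-2.10 [-3.72 to -1.41]), Entpd1 (-2.04 [-2.32 to -0.76]) and Tox (-1.12 [-1.23 to -0.84]) were also lower, and Ccr7 (2.71 [1.86 to 4.13]), Klf3 (2.05 [1.58 to 3.09]) and Bach2 (1.68 [1.60 to 1.74]) were higher. Xcl1 ranged from -0.035 to 4.56 between libraries. Members with any Gzmc to Gzmf UMI also differed from members with none in Maf (-1.26 [-1.87 to -1.09]), Ccl5 (-1.14 [-1.22 to -0.84]) and Cd101 (-1.03 [-1.49 to -0.66]) and held less of each in every library. These are 3 of the genes that separated the members from granzyme C-F-high cells. Both comparisons sort cells by Gzmc to Gzmf UMIs and share the members, so the 1 is no independent check of the other. Members with such a UMI were also deeper, at medians of 8028, 9378.5, 7331 and 8339 UMIs against 6309, 6655, 5809.5 and 6531.

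After the STING agonist alone, members held less Tox RNA and more RNA of Pkp3, Cd69, Gpr183 and the AP-1 genes Junb and Fosb than untreated members. Among genes with a mean of at least 20 CPM, 63 of 6206 were higher (1.02%) and 196 of 6206 were lower (3.16%). With the 301 mixed members left out, 55 genes were higher and 80 lower of 6106. The median of all genes was 0.013.

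Tox (chr4:6686353-6991557, mm10) stood at 513, 338, 559 and 304 CPM, and both libraries with the STING agonist lay below both without it. The STING agonist value differed from untreated by -0.59 [-0.74 to -0.44] on the log2 scale of CPM + 10, with counting bounds in square brackets, and by -0.70 without mixed members. In members with the receptor V segment Trav14d-3-dv8, described below, these 2 libraries were close, at 419 CPM untreated and 424 CPM with the STING agonist. Tox was detected in 48.05%, 29.7%, 54.9% and 34.6% of members thinned to 2000 UMIs, again lower in both libraries with the STING agonist. Of the 16 transcription factors in the exhaustion list Maf was also lower, at -0.71, and Irf4, which is induced by T cell receptor signals, was higher, at 0.69 (0.52 without mixed members, under 1.5-fold, where Nr4a1 was the higher call at 0.73). The list median was -0.066. Trerf1, a transcription regulator, followed the order of Tox at 93.7, 48.9, 173 and 46.3 CPM (-0.82).

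Pkp3, which encodes a plakophilin of cell junctions, was highest of the 4 libraries here, at 60.9, 135, 82.3 and 56.6 CPM (1.03 [0.75 to 1.31]). Cd69, an early activation and retention receptor, stood at 80.9, 173, 103 and 128 CPM (1.01 [0.76 to 1.26]), and Gpr183, an oxysterol receptor that guides lymphocyte positioning, at 76.5, 152, 90.6 and 102 CPM (0.91 [0.64 to 1.17]). All 3 passed 1.5-fold without mixed members (0.96, 0.84 and 0.95). Of 13 immediate early genes, which respond within minutes to receptor signals and to tissue handling, 12 had a ratio above 0 (median 0.44), and Junb (0.70) and Fosb (0.78) passed 1.5-fold. Fos (0.17), Dusp1 (0.51) and Nfkbia (0.52) passed it without the 301 mixed members, where they stood at 1.11, 0.80 and 0.68. The part of tissue handling in this was not tested.

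Xcl1 had the highest ratio, at 1.53 [1.30 to 1.77], but it rested on few cells: Xcl1 stood at 82.8, 259, 110.5 and 31.8 CPM, and the 10 cells with the most Xcl1 UMIs held 84.8%, 95.2%, 69.5% and 74.6% of them. The chemokine and cytokine list (median 0.37) had 4 genes higher of 10, Xcl1, Ccl1 (1.01), Spp1 (0.82) and Ltb (0.60), and Areg lower (-0.83). The Spp1 ratio differed in direction between members split by receptor V segment, as given below. Without mixed members Ltb was at 0.48 and Ccl5 was a second lower call, at -0.60. In the STING agonist library, 91.7% of the Ccl1 UMIs lay in 10 cells. Il2, below the level needed for the ratios, had 134 UMIs in the STING agonist library, all in 2 of 348 members (0.575%), and 0, 1 and 1 in the others.

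Among the other lists, the 10 inhibitory receptors outside the rule (median -0.057) stayed within 1.5-fold but for Lair1 (-1.14, -0.11 without mixed members). Of 9 progenitor genes (median 0.28) Klf2 (0.96) and Cxcr3 (0.90) were higher, and without mixed members Klf2 was at 0.53 and Ccr7 at 0.94, from -0.11 in all members. Ctsw, a cysteine protease of cytotoxic cells, was higher at 219.97, 367, 235 and 231 CPM (0.71, 0.58 without mixed members, under 1.5-fold), and the other 11 cytotoxic genes were within 1.5-fold (list median 0.11). Of 20 interferon-stimulated genes, the class that STING signalling is known for, none passed 1.5-fold in either direction (median 0.088). The cells were taken on day 14, long after the single dose, so an earlier response was not measured. Of 9 heat shock genes Hspa1b and Hsph1 were higher (0.72 and 0.76, list median 0.54), and without mixed members Hsph1 and Hspa8 were (0.70 and 0.59). The Hspa1b ratio differed in direction between members split by receptor V segment, as given below. Ubash3b, a negative regulator of T cell receptor signals, was the 1 call of 13 signalling genes at -0.63. Fcer1g and Tyrobp, adaptors shared by NK and myeloid cells, were lower (-1.27 and -1.15) in all members and at -0.22 and 0.0086 without mixed members. None of the 11 costimulatory receptors, 12 cytokine receptors or 14 glycolysis and hypoxia genes passed 1.5-fold, with medians of -0.002, 0.12 and 0.12. Cd69 was the 1 call of 8 residency genes (median 0.066), joined by Itgb7 (0.59) without mixed members.

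The genes with the lowest ratios were Thbs1, Slc8a1, Lrmda, H2-Eb1, Cst3, Fabp5, Il1r2, H2-Ab1, Apoe and Basp1, most of them abundant in macrophages, dendritic cells or neutrophils. Without the 301 mixed members 5 of the 10 were still past 1.5-fold: Slc8a1, a sodium-calcium exchanger, at -1.14 (from -1.75), the decoy receptor Il1r2 at -0.82, the protease inhibitor Cst3 at -0.78, Basp1 at -0.65 and H2-Eb1, an MHC class II gene, at -0.61. The other 5 were not, with Thbs1 at -0.27 (from -1.78), Lrmda at -0.37, H2-Ab1 at -0.33, Apoe at -0.19 and Fabp5 at -0.03. The summed macrophage markers were 1125 CPM in untreated and 502 CPM in STING agonist members.

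After the LTβR agonist alone, members held less RNA of Gzmb, Prf1, Serpinb9 and Serpine2 and more of Ikzf2, Sema6d and the chaperone genes Hspe1, Hspa1a and Hspa1b. Of all genes tested 51 of 6206 were higher (0.822%) and 51 of 6206 were lower (0.822%), with a median of 0.0043, and without mixed members 42 were higher and 68 lower of 6106.

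Gzmb (chr14:56258838-56262260) stood at 2204, 2693, 1176 and 2022 CPM and was lowest in the LTβR agonist library (-0.90 [-0.97 to -0.83]). Prf1, at 1176, 1078, 689 and 901 CPM, and the granzyme B inhibitor Serpinb9, at 243, 363, 143 and 225 CPM, were lowest in the same library (-0.76 [-0.86 to -0.67] and -0.72 [-0.92 to -0.53]). These were the 3 calls of 12 cytotoxic genes, whose median was -0.20, and all 3 passed 1.5-fold without mixed members. Gzmb was detected in 72.6%, 69.7%, 54.9% and 62.5% of thinned members, lowest again with the LTβR agonist, against 16 of 540 (2.96%) of unthinned B-like cells. Gzmb lies in the same gene cluster as Gzmc to Gzmf but was not part of the rule.

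Serpine2 (chr1:79794197-79861180) had the lowest ratio, at 196, 283, 60.98 and 181 CPM (-1.54 [-1.79 to -1.28], -1.46 without mixed members). Styk1, a kinase-like membrane protein, stood at 189, 199, 83.4 and 163 CPM (-1.09 [-1.33 to -0.85]), and Zbtb32, a zinc finger repressor, at 87.6, 98.2, 44.01 and 115 CPM (-0.85 [-1.17 to -0.54]). Il12rb2, a chain of the IL-12 receptor, was the 1 call of 12 cytokine receptors, at 158, 219, 92.9 and 191 CPM (-0.70 [-0.94 to -0.46]). All 4 of these genes were lowest in the LTβR agonist library. Gm156, Myo10, Slc17a6, Lyst and Tmem163 were also among the lowest ratios, from -1.05 for Gm156 to -0.80 for Tmem163, and Lyst is a gene of cytotoxic granule traffic.

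Ccl4, 1 of the chemokine markers, stood at 3227, 2852, 2095 and 2346 CPM (-0.62 [-0.68 to -0.57]), and Ccl3 at 1066, 906, 825 and 769 CPM (-0.37 [-0.46 to -0.28], within 1.5-fold). Both ratios differed between members split by receptor V segment, that of Ccl3 in direction, as given below. With Areg (-0.74), Ccl4 made 2 lower calls of 10 chemokines and cytokines (median -0.39), and Ccl1 was higher (0.74, 0.21 without mixed members). Without the 301 mixed members 4 of the 10 were lower and none was higher, since Spp1, the cytokine osteopontin, went from -0.13 to -1.46 and Csf1, the macrophage growth factor, from -0.58 to -0.62. The costimulatory receptor Icos was at 665, 628, 425 and 619 CPM (-0.63, -0.58 without mixed members, under 1.5-fold), the 1 call of 11 (median -0.28).

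Ikzf2 (chr1:69531214-69687245), which encodes the transcription factor Helios, was highest with the LTβR agonist, at 156, 121, 261 and 123 CPM (0.71 [0.52 to 0.90], 0.81 without mixed members). It was detected in 18.9%, 15.4%, 31.4% and 16.2% of thinned members and was the 1 call of 16 transcription factors, with Tox at 0.12 and a list median of -0.05. Ikzf2 is also carried by regulatory T cells, whose defining gene Foxp3 stood at 1.01, 3.41, 3.16 and 4.92 CPM in the members. Sema6d, a semaphorin, stood at 51.2, 44.8, 113 and 84.7 CPM (1.01 [0.72 to 1.29]), high in both libraries with the LTβR agonist. Trerf1 had its highest level of the 4 libraries here, a difference of 0.82.

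Of 9 heat shock genes all had a ratio above 0 (median 0.56), and Hspe1 (0.69), Hspa1a (0.99) and Hspa1b (1.46) passed 1.5-fold. Hspa1a and Hspa1b are near-identical copies whose reads cannot be fully separated, and 10 cells held 70.9%, 66.7%, 64.1% and 64.8% of the Hspa1b UMIs. Hspe1, a mitochondrial chaperonin, was detected in 59.4%, 66.95%, 71.99% and 73.99% of members. Nfkbia was the 1 call of 13 immediate early genes (0.61) and Ahr the 1 call of 8 residency genes (0.61, 0.36 without mixed members). No gene was called among the inhibitory receptors outside the rule (10), progenitor (9), interferon-stimulated (20), glycolysis and hypoxia (14), NK receptor (7) and T cell receptor signalling (13) genes, with medians of -0.13, -0.15, -0.057, 0.061, -0.36 and -0.19. Without mixed members Cd160 was a lower call of the inhibitory receptors, at -0.67 (from -0.58), Zfp36 of the immediate early genes (-0.70), and Ifi27l2a (0.69), Tyrobp (0.86) and Dnajb1 (0.62) were higher. Fn1, Cxcl2 and Apoe, genes of myeloid cells, were also among the 10 highest or lowest ratios. Without mixed members Fn1 was at 0.60 (from 1.03) and Cxcl2 at 0.95 (from 0.90), both past 1.5-fold, and Apoe at -0.22 (from -0.99).

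After both agonists, Tox and Ccl5 were lower than in untreated members, the TNF receptor family members Tnfrsf9 and Tnfrsf4 and the IL-2 receptor chain Il2ra were higher, and cytotoxic genes lay within 1.5-fold. Of all genes tested 38 of 6206 were higher (0.612%) and 148 of 6206 were lower (2.38%), with a median of -0.02, and without mixed members 32 were higher and 77 lower of 6106.

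Tox differed from untreated by -0.74 [-0.87 to -0.61] and was the 1 call of 16 transcription factors (median -0.15). Ccl5, a chemokine of effector T cells, stood at 8277, 6084, 6207 and 5201 CPM (-0.67 [-0.70 to -0.64]), and Csf1 at 175, 223, 114 and 106 CPM (-0.68 [-0.89 to -0.47]). With Xcl1 (-1.15) they made 3 lower calls of 10 chemokines and cytokines (median -0.42). Without mixed members Ccl3 (-0.63) and Ccl4 (-0.60) were also lower calls, and so was the transcription factor Nr4a2 (-0.66). The Ccl3 and Ccl4 ratios differed in size between members split by receptor V segment, as given below. Of 10 inhibitory receptors outside the rule, Cd160 at 54.8, 69.02, 33.4 and 31.3 CPM (-0.65) and Cd244a at 64.4, 49.3, 77.4 and 32.6 CPM (-0.80) were lower and passed 1.5-fold without mixed members, as Cd160 did with the LTβR agonist alone, while Lair1 (-0.66) was at -0.22 there. Tigit, at 320.3, 317, 331 and 322 CPM, differed little between the 4 libraries.

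Tnfrsf9, which encodes the costimulatory receptor 4-1BB, stood at 246, 246, 272 and 379 CPM (0.60 [0.46 to 0.75]) and Tnfrsf4, which encodes OX40, at 111, 109, 124 and 182 CPM (0.67 [0.46 to 0.88]). Il2ra stood at 63.1, 82.3, 77.4 and 116 CPM (0.79 [0.53 to 1.05]). In all 3 the combination library was the highest. Tnfrsf9 and Tnfrsf4 lay just under 1.5-fold without mixed members, at 0.51 and 0.57, and Il2ra was at 0.75. Split by receptor V segment, described below, the Tnfrsf9 ratio was 0.76 with Trav14d-3-dv8, 0.30 with another Trav and 0.44 where none was called. It thus passed 1.5-fold only in Trav14d-3-dv8 members. Cd7 was lower at -0.66, the third call of 11 costimulatory receptors (median -0.10).

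The highest ratio belonged to Tsc22d3, a glucocorticoid-induced leucine zipper gene, at 62.3, 108, 88.9 and 126 CPM (0.91 [0.66 to 1.16]). Cish, a feedback inhibitor of cytokine signals, stood at 75.5, 131, 111 and 131 CPM (0.72 [0.48 to 0.96]), and Cd69 at 0.60 (0.45 without mixed members, under 1.5-fold) was the 1 call of 8 residency genes. Eno1b, a near-copy of the glycolytic gene Eno1 whose reads may not be fully separable, was at 0.85. Of the 14 glycolysis and hypoxia genes 13 had a ratio above 0 (median 0.21) but none passed 1.5-fold, and without mixed members Bnip3 did (0.88). The remaining highest ratios were those of Rgcc, Ctla2a, Hsph1, Sema6d and Prelid2, from 0.61 to 0.69.

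Calca, which encodes the peptides calcitonin and CGRP, was lower at 76.7, 59.2, 66.2 and 18.1 CPM (-1.62 [-1.96 to -1.28]), with 44.3% of its untreated UMIs in 10 cells. Ifitm1, at 915, 446, 573 and 334 CPM, differed by -1.43 in all members and by -0.78 without mixed members. The other lowest ratios were those of C1qa, C1qb, C1qc, Lgmn, Apoe, Fabp5, Tgfbi and Cxcl2, genes of macrophages or other myeloid cells, and C1qb went from -1.82 to -0.16 without mixed members. There Tgfbi was still past 1.5-fold at -0.60, Cxcl2 was past it in the other direction at 0.90, and the other 6 lay between -0.23 and 0.19. Gbp2 was the 1 call of 20 interferon-stimulated genes (-0.83, -0.44 without mixed members). Fos and Zfp36 among 13 immediate early genes (-0.59 and -0.72), Ccr7 among 9 progenitor genes (-1.05) and Fcer1g and Tyrobp among 7 NK receptor genes were lower in all members, and none of the 5 passed 1.5-fold without mixed members, where Fosb was higher (0.68). Hsph1 was the 1 call of 9 heat shock genes (median 0.36), all 9 being above 0. None of the 12 cytotoxic or 13 T cell receptor signalling genes passed 1.5-fold (medians -0.066 and -0.18), while without mixed members Cd5 (-0.63) and Ubash3b (-0.67) of the latter were lower. Il2ra was the 1 call of 12 cytokine receptors (median -0.15).

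**Figure D3:**
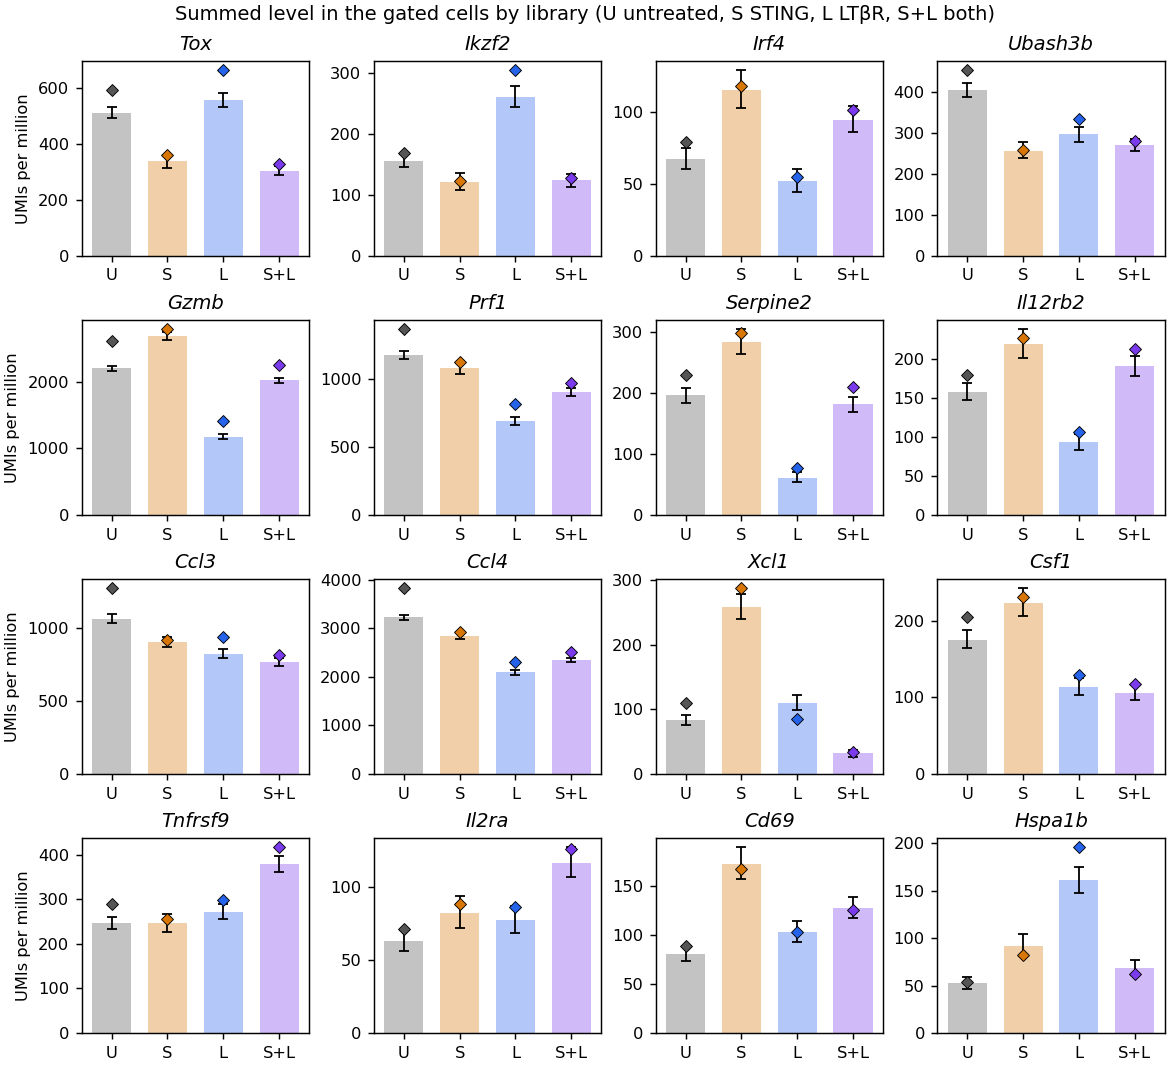
CPM of 16 genes over the summed UMIs of the members in each library (bars, with exact Poisson 95% intervals of counting error; the axis of each panel starts at 0), and without the 301 mixed members (diamonds). Tox is lower in both libraries with the STING agonist, and Gzmb, Prf1 and Serpine2 are lowest in the LTβR agonist library.

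Each agonist was also looked at when it was added to the other. Combination over LTβR agonist shares no library with STING agonist over untreated, so both show a STING agonist added, once alone and once on top. Of all genes 46 were higher in the combination than with the LTβR agonist (0.741%) and 182 were lower (2.93%). Of the lower genes, 102 were lower in both comparisons (52.0% of 196 and 56.0% of 182), but without mixed members 14 were (17.5% of 80 and 15.2% of 92). Of the higher genes 8 were shared (12.7% of 63 and 17.4% of 46), and 5 of them were V segment genes of the T cell receptor, which follow the receptors the cells carry. The other 3 were Irf4, Sertad1 and Slc15a2. Of the 9 genes that passed 1.5-fold in opposite directions, 3 were V segment genes and 2 the neutrophil genes S100a8 and S100a9.

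Tox was among the genes lower in both, at -0.59 [-0.74 to -0.44] alone and -0.86 [-0.99 to -0.72] on top, and at -0.70 and -0.9996 without mixed members. In members with the V segment Trav14d-3-dv8 the Tox ratio alone was 0.016. Over all members Trerf1 was also lower in both, at -0.82 and -1.70. Irf4 was higher in both, by 0.69 and 0.76, but by 0.52 alone without mixed members. Both ratios of a gene that involve the LTβR agonist share that library, so a gene at its lowest or highest there takes opposite signs in them: between the combination and the LTβR agonist, Gzmb differed by 0.78 [0.70 to 0.85], Serpine2 by 1.43 [1.16 to 1.69], Zbtb32 by 1.21, Il12rb2 by 0.96 and Ikzf2 by -1.02 [-1.22 to -0.82].

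For the LTβR agonist, 70 genes were higher in the combination than with the STING agonist alone (1.13%) and 76 were lower (1.22%). Higher in both comparisons were 12 genes (23.5% of 51 and 17.1% of 70) and lower in both 10 (19.6% of 51 and 13.2% of 76). Most of the 12 are genes of B cells or myeloid cells, among them Igkc, Ighm, Lyz2, Retnla, Ifi30 and Cfp. Without the 301 mixed members 6 genes were higher in both (14.3% of 42 and 15.0% of 40) and 9 lower (13.2% of 68 and 13.4% of 67), Spp1, Csf1, Cd160 and Serpinb9 among the latter. Sema6d was higher in both, by 1.01 [0.72 to 1.29] alone and 0.79 [0.44 to 1.14] on top. Gzmb was at -0.90 alone and -0.41 on top, the latter within 1.5-fold, and Serpine2 at -1.54 and -0.62 (-0.49 on top without mixed members). Ikzf2 was higher alone (0.71) and at 0.023 on top.

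**Figure D4:**
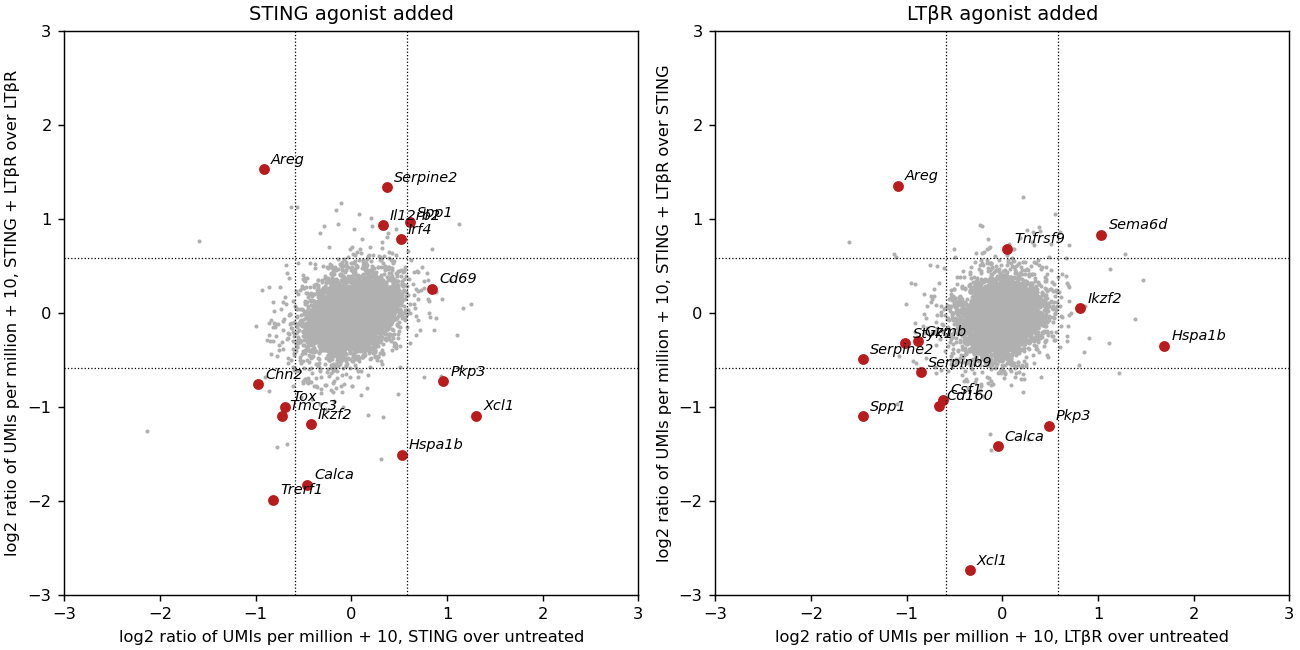
Log2 ratio of CPM + 10 for each gene without the 301 mixed members and without V segment genes: left, STING agonist over untreated (x axis) against combination over LTβR agonist (y axis); right, LTβR agonist over untreated against combination over STING agonist. Dotted lines mark 1.5-fold. Tox (-0.70 and -0.9996) lies in the lower left part of the left panel, and Sema6d (1.03 and 0.84) in the upper right part of the right panel.

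The 5′ libraries reach into the variable part of T cell receptor transcripts, so V segments could be read as genes. A V segment was called in a cell where 1 segment of that chain had more UMIs than any other. It narrows down the receptor but is not a clone, since the junction was not analysed here. A Trbv segment was called in 1706 members (85.1%) and a Trav segment in 1158 (57.8%), the latter in 49.8%, 72.4%, 48.6% and 65.0% of each library.

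One alpha segment, Trav14d-3-dv8, stood out in number. It lies on chr14:53078452-53079045 on the plus strand (mm10, that is GRCm38, with GENCODE vM21 gene models), and was called in 458 members. Near-identical copies lie on the same chromosome, Trav14-3 at chr14:53763173-53763694 with 96.9% identity over 384 aligned bases and Trav14n-3 at chr14:53370077-53370575 with 96.7% over 361. A stretch of 90 bases from the second coding exon (chr14:53078909-53078998), where the copies can be told apart, is shown 5′ to 3′ to let a reader see how few bases assign a read to a copy. The 6 positions at which the copies differ are in capitals. Trav14-3 differs from Trav14d-3-dv8 at 4 of them and Trav14n-3 at all 6.
Trav14d-3-dv8: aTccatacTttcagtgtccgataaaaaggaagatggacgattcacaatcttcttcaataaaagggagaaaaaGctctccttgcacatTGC
Trav14-3: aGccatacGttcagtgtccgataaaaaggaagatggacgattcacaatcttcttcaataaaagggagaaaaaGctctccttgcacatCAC
Trav14n-3: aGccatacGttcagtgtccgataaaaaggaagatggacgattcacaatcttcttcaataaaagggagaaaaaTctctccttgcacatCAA

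Of the UMIs counted on Trav14 family genes in members, 2011 of 2069 (97.2%) were on Trav14d-3-dv8, and the copies may share reads. Trav14d-3-dv8 made up 22.9%, 46.8%, 27.03% and 56.2% of the members with a called Trav, and both libraries with the STING agonist lay above both without it. By count this was 72 of 314 (22.9%, 95% interval 18.4 to 27.98) in the untreated library, 118 of 252 (46.8%, 95% interval 40.5 to 53.2) with the STING agonist, 60 of 222 (27.03%, 95% interval 21.3 to 33.4) with the LTβR agonist and 208 of 370 (56.2%, 95% interval 50.99 to 61.3) with the combination. Over all members, called or not, the shares were 11.4%, 33.9%, 13.1% and 36.6%, in the same order.

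The segment was rare in the CD8 cells without checkpoint genes. It made up 5.71%, 5.41%, 3.33% and 7.61% of checkpoint-low cells with a called Trav and 0.621%, 1.04%, 1.73% and 2.54% of CD4 T cells, gated by CD3 and Cd4 UMIs. Cycling CD8 cells held 24.6%, 55.9%, 28.3% and 54.9%. In granzyme C-F-high cells 7 of 35 untreated cells carried it. The number was 32 of 44 (72.7%) after the STING agonist, 3 of 8 (37.5%, 95% interval 8.52 to 75.5) after the LTβR agonist and 22 of 34 (64.7%) after both.

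The leading beta segment differed between libraries. The 5 most frequent over all members were Trbv29 (271 cells), Trbv19 (241), Trbv13-1 (217), Trbv3 (209) and Trbv15 (141). Trbv3 made up 24.7%, 9.78%, 9.67% and 3.24% of called members, highest untreated, and Trbv29 24.3%, 19.2%, 8.91% and 10.7%. Trbv19 made up 4.18%, 23.03%, 11.96% and 20.2%, lowest untreated, Trbv13-1 6.37%, 7.26%, 9.16% and 25.5%, highest with the combination, and Trbv15 4.38%, 7.89%, 13.2% and 8.50%. Trbv1, named after its values were seen, made up 4.18%, 3.79%, 18.3% and 0.405% and was the most frequent segment with the LTβR agonist. The effective number of Trbv segments (inverse Simpson index) was 6.88, 8.21, 9.53 and 7.05 in members and 12.8, 15.5, 14.6 and 16.9 in checkpoint-low cells, lower in members in every library. It was 6.30, 7.37, 10.5 and 6.94 in cycling CD8 cells, near the members, and 3.70, 4.57, 4.71 and 5.12 in granzyme C-F-high cells, where 61, 50, 12 and 47 cells had a called Trbv.

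Trav14d-3-dv8 was paired with 10, 9, 6 and 10 different Trbv segments. The most frequent pair was Trbv3 with Trav16 in the untreated library (47 of 265 members with both called, 17.7%), Trbv29 with Trav14d-3-dv8 with the STING agonist (41 of 234, 17.5%), Trbv15 with Trav14d-3-dv8 with the LTβR agonist (29 of 206, 14.1%) and Trbv13-1 with Trav14d-3-dv8 with the combination (98 of 341, 28.7%). The leading pair thus differed in all 4 libraries and held Trav14d-3-dv8 in 3 of them. Each library pooled several tumours, so an expansion in 1 animal and a difference between treatments cannot be told apart.

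**Figure D5:**
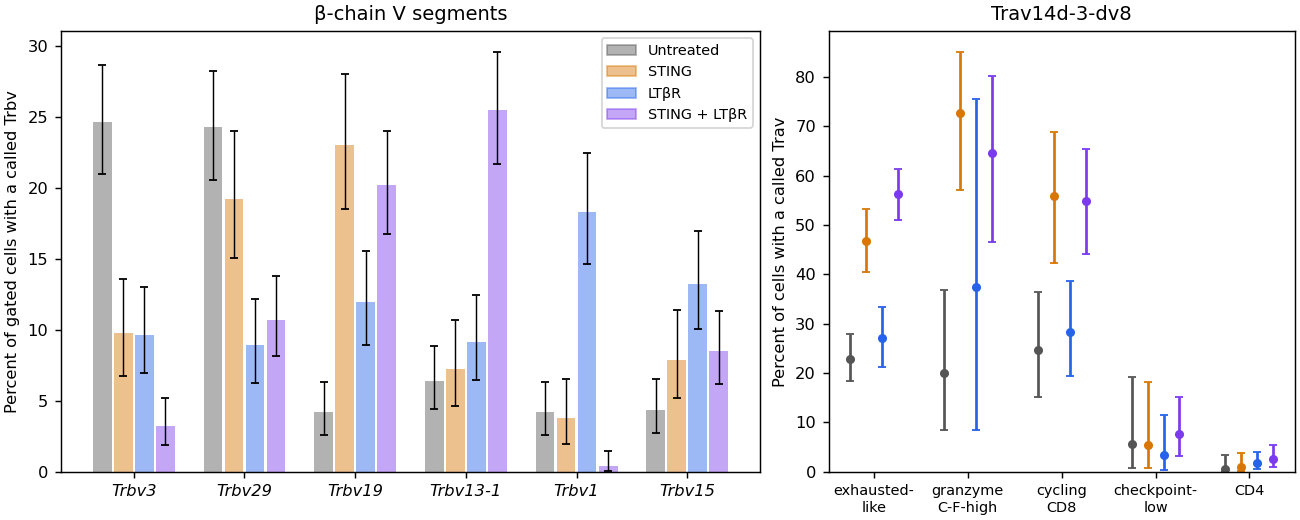
Left, share of members with a called Trbv (percent) that carried each of 6 Trbv segments, by library; right, share of cells with a called Trav (percent) that carried Trav14d-3-dv8, by cell class and library, with exact 95% intervals of counting error. Among members Trav14d-3-dv8 lies at 46.8% and 56.2% in the libraries with the STING agonist and at 22.9% and 27.0% in those without it, and at 3.33% to 7.61% in checkpoint-low cells.

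Gene levels were then read within members that carried Trav14d-3-dv8, another Trav, or none called. Tox was 419, 424, 700.3 and 305 CPM in the first, 429.7, 291, 550.3 and 342 in the second and 614, 259, 519.9 and 268 in the third. The LTβR agonist level was above the STING agonist and the combination levels in all 3, while in Trav14d-3-dv8 members the untreated and STING agonist levels were close. Gzmb was 2336, 2531, 907 and 1891 CPM in Trav14d-3-dv8 members and 2262, 2536, 1310.5 and 2066 CPM with another Trav. It was lowest with the LTβR agonist in both, and also where no Trav was called. Prf1 was lowest with the LTβR agonist in members with Trav14d-3-dv8 (1338, 1482, 908 and 1259 CPM) and with another Trav (1217, 898, 719.9 and 812 CPM), but not where none was called (1095, 648, 595 and 538 CPM), where the combination was lower. Ikzf2 was 148, 115, 237 and 83.05 CPM in Trav14d-3-dv8 members and 152, 133, 273 and 149 CPM with another Trav. It was highest with the LTβR agonist in all 3 sets of members. The Ccl4 log2 ratio of the LTβR agonist to untreated was -0.28 with Trav14d-3-dv8, -0.18 with another Trav and -1.09 where none was called. Ccl3 was at -0.68, 0.34 and -0.89 in the same order, so its direction differed. With the combination Ccl4 was at -0.04, -0.02 and -1.07 and Ccl3 at -0.38, -0.06 and -1.04. Xcl1 reached its STING agonist level outside Trav14d-3-dv8, at 30.6, 11.2, 49.2 and 38.7 CPM within it and 49.4, 418, 88.2 and 17.7 CPM with another Trav. Spp1 in the untreated and STING agonist libraries was 437 and 838 CPM in Trav14d-3-dv8 members (log2 ratio 0.92). It was 154 and 178 CPM with another Trav (0.20) and 263 and 112 CPM where none was called (-1.17). For Hspa1b the log2 ratio of the STING agonist to untreated was -0.26 with Trav14d-3-dv8, 0.58 with another Trav and 1.85 where none was called.

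Compared within each library, Trav14d-3-dv8 members held more Spp1 than members with another Trav, by a median over all members of 1.47 [0.22 to 2.17], the lowest value being that of the LTβR agonist library and under 1.5-fold. Without the 270 mixed members the difference was 1.85 [0.89 to 2.21]. They held less Cd5 (-0.87 [-1.01 to -0.75], -0.94 [-1.11 to -0.81] without the 270) and Cd6 (-0.86 [-1.18 to -0.72], -0.93 [-1.33 to -0.70]), receptors that dampen T cell receptor signals. Hspa1b was also lower (-1.37 [-2.16 to -0.70], -1.14 [-2.08 to -0.58]), and the integrin gene Itgb7 differed by -1.20 [-1.51 to -0.46] over all members, under 1.5-fold in the combination library, and by -1.19 [-1.42 to -0.61] without the 270. Cells that share a V segment within a library may descend from 1 cell, so they are not independent. The constant segment gene Trbc1, which a cell uses in place of Trbc2, stood at 211, 139.9, 332 and 129.7 CPM.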

How the data were processed

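Leukocytes of 4 pooled tumour groups were measured by droplet 5′ single-cell RNA-seq, 1 library per group. The deposited matrix holds the authors' raw UMI counts for 32285 genes, made with Cell Ranger 7.1.0 on mm10 per the labels, and was not normalised or filtered beyond the calling of cells. The annotation release is not given in the sources used here. Libraries were told apart by barcode suffix, as the labels give it. The study describes repeated single-cell experiments without saying which gave these libraries.

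Member UMIs were summed per library and scaled to CPM, depth being 2636835 to 4941537 member UMIs per library. Genes with a mean of at least 20 CPM were compared as log2(CPM + 10), which understates the change of low genes, and 1.5-fold in either direction was called. Shares have exact Clopper-Pearson and CPM exact Poisson 95% intervals, counting error only, and bounds of a ratio set opposite interval ends against each other. The scripts were tested on simulated data. Tools were Python 3.11.15, numpy 2.4.6, scipy 1.17.1, pandas 2.3.3, scanpy 1.11.5 (Scrublet, expected rate 0.05) and matplotlib 3.10.9. Doublets were kept in the main values. Alternatives were pseudocounts of 1 and 50, no CPM filter, size factors, means per cell, cells thinned to 2000 or 1000 UMIs, other forms of the rule, and removal of mixed members or of Scrublet scores of 0.2 or above.

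Named genes were those of the rule and its markers. From 14 lists (194 genes, 193 in the matrix, 164 tested) came counts, up to 4 genes by level and those past 1.5-fold. Also named were the 10 highest and lowest ratios per comparison (mean of at least 50 CPM, a UMI in at least 5% of members, without V(D)J, mitochondrial and ribosomal genes) and the 5 most frequent Trbv. Trav14d-3-dv8, Trbv1, Trerf1 in the STING agonist and combination comparisons, Trbc1 as a gene of receptor make-up, Il2, and genes named for a comparison with other CD8 cells, a split of the members, a call gained without mixed members or an agonist added to the other were chosen after their values were seen. The members and lists were chosen with earlier results of these data known.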

Additional observations from a re-analysis of the deposited data

Results flagged for a closer look

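Some genes moved past 1.5-fold in opposite directions when the same agonist was given alone and on top of the other. Each side is 1 library against 1, so the difference between the 2 effects was not tested. Values are log2 ratios alone and on top, with those without the 301 mixed members in parentheses. Among the named genes that are neither V segments nor in a marker list of another cell type there were 4. Of these, Cxcl2 is a gene of myeloid cells. Xcl1 differed by 1.53 and -1.53 (1.30 and -1.09) for the STING agonist. Areg, which encodes amphiregulin, differed by -0.83 and 1.26 (-0.92 and 1.53) for the STING agonist and by -0.74 and 1.35 (-1.10 and 1.35) for the LTβR agonist. Hspa1b differed by 0.72 and -1.12 (0.53 and -1.51) for the STING agonist. Cxcl2 differed by 0.90 and -0.74 (0.95 and 0.39) for the LTβR agonist, in 1 direction without mixed members. The 10 cells with the most UMIs held 59.2%, 94.03%, 73.7% and 55.3% of Areg and 71.9%, 98.2%, 81.0% and 87.6% of Cxcl2 UMIs in the 4 libraries, so these values rest on few cells.

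The neutrophil markers S100a8 and S100a9 also did so. For the STING agonist S100a8 was at 0.95 and -3.71 (0.024 and -0.22) and S100a9 at 1.16 and -4.32 (0.30 and -0.36), and for the LTβR agonist S100a9 was at 0.77 and -4.71 (0.28 and -0.38). Both were at 0 in the combination library, so their ratios there depend on the 10 CPM added and are no bound. Of the V segments, which follow the receptors the cells carry, Trbv4 was at -0.84 and 1.22 (-0.96 and 1.28), Trbv15 at 1.23 and -0.70 (1.04 and -0.51) and Trbv16 at 1.83 and -1.53 (1.60 and -1.62) for the STING agonist. For the LTβR agonist Trbv1 was at 1.504 and -2.37 (1.48 and -2.19), Trbv4 at -1.14 and 0.92 (-1.31 and 0.93), Trbv14 at 2.01 and -0.60 (2.16 and -0.67), Trbv15 at 1.34 and -0.59 (1.002 and -0.55) and Trbv19 at 0.60 and -0.88 (0.55 and -0.89). Without mixed members, but not over all members, Pkp3 (0.96 and -0.72) and Ccr7 (0.94 and -0.67) went in opposite directions for the STING agonist, and Hspa1a (1.22 and -0.64) for the LTβR agonist.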

How the results depend on the processing

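No replicate could be left out, since each group has 1 library. No paired analysis was possible because each group has 1 library and no replicate numbers are shared. The share of members with the LTβR agonist was 0.829 times untreated over the CD8 gate, 0.480 after thinning to 1000 UMIs and 0.562 when all 3 checkpoint genes were required. With the combination it was 0.868 over the CD8 gate, in place of a value above 1, and 1.004 over the gate thinned to 1000 UMIs. Counts of genes past 1.5-fold moved as follows. With a pseudocount of 1, 112 genes were higher with the STING agonist, 99 higher and 89 lower with the LTβR agonist, and 65 higher with the combination. With 50 the counts higher and lower were 18 and 65, 19 and 19, and 9 and 48. Thinning members to 2000 UMIs gave 204 and 302, 113 and 178, and 87 and 234, and no CPM filter 108 and 357, 122 and 101, and 74 and 243. A mean of CPM per cell gave 80 lower with the LTβR agonist beside 45 higher, so 36.0% of calls were higher in place of 50%. Without Scrublet scores of 0.2 or above, 128 were lower with the STING agonist and 72 with the combination. Without the 270 mixed members this was 90 and 90, and without the 301, a setting added after seeing the data, 80 and 77. Of the list medians with the LTβR agonist, 1 was above 0 without the 270. Against granzyme C-F-high cells, 20 genes were higher and 7 lower with a pseudocount of 50, 29 higher without mixed cells and 25 lower after thinning. Against checkpoint-low cells it was 198 and 118 with a pseudocount of 50, and 178 and 127 after thinning. Apart from the settings' own construction (fewer UMIs, other genes or cells), the cause was not tested.

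Directions turned in 23 single-gene values, all on removal of mixed cells or doublets. For the combination without high Scrublet scores these were Lair1 0.086, Fos 0.31, Tyrobp 0.17, C1qa 0.90, C1qb 0.25, C1qc 0.77, Apoe 0.086, Il1r2 0.021, Basp1 0.11, Tgm2 0.44 and Cd14 0.30, and for the LTβR agonist Ifitm1 0.40. Without the 270, C1qa was 0.20 and C1qc 0.14 with the combination, C1qc 0.086 with the STING agonist and Ifitm1 0.0099 with the LTβR agonist. Without the 301, Tyrobp was 0.0086 and C1qc 0.074 with the STING agonist, and Tyrobp 0.079, C1qa 0.19, C1qc 0.13, Cxcl2 0.90 and Cd14 0.035 with the combination. Of 129 called gene differences, 125 stayed past 1.5-fold in their direction with size factors, 111 with means per cell and 101 after thinning. With a pseudocount of 50 the number was 77, and with 1 it was 129. It was 91 without high Scrublet scores, 88 without the 270 and 77 without the 301.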
